A study of Homo sapiens with 6 samples.

Results

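The genes described here encode the nuclear-encoded subunits of the 5 oxidative phosphorylation complexes, complex I to complex V. They were taken by symbol from the protein-coding rows of the count table (symbols of NDUFA, NDUFB, NDUFC, NDUFS and NDUFV followed by a number, SDHA to SDHD, UQCR genes, CYC1, genes of COX5 to COX8 whose symbol goes on only with A, B, C or digits, and genes starting with ATP5F, ATP5M or ATP5P). The rule found 84 of 19941 protein-coding genes, and 78 of the 84 had enough counts to be tested. By the complex their product belongs to, 36 are in complex I, 4 in complex II, 10 in complex III, 15 in complex IV and 19 in complex V, with NDUFA4 placed in complex IV. On chromosome 2 lie 5 of them, namely COX5B, ATP5MC3, NDUFB3, NDUFS1 and NDUFA10, and the other 79 lie elsewhere. A further 57 rows with matching symbols were processed pseudogenes and were left out.

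The study sequenced polyA RNA of A549, a line derived from a human lung carcinoma, in 3 libraries of parental cells and 3 libraries of cells whose RAVER1 gene had been deleted with CRISPR/Cas9. The 3 libraries of each group are described as biological replicates, and no further treatment or time is named. RAVER1 encodes an RNA-binding protein known as a partner of the splicing regulator PTBP1. All knockout titles carry the label KO2, and the labels do not say whether it is 1 clone, so p-values reflect how these libraries vary, not how separately made knockout lines would.

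Oxidative phosphorylation is carried out in the inner mitochondrial membrane. Complexes I and II pass electrons from NADH and succinate to ubiquinone, complex III passes them to cytochrome c, complex IV passes them to oxygen, and complexes I, III and IV pump protons whose return drives ATP synthesis by complex V. All complexes but complex II combine subunits encoded in the nucleus with subunits encoded in mitochondrial DNA, so the nuclear subunits are imported and assembled with partners made inside the organelle.

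RAVER1 was examined first because it checks the labels. Parental libraries 1 to 3 counted 2510, 1996 and 2285 reads for it, and knockout libraries counted 110, 112 and 79, a fall of 4.67 on the log2 scale (SE 0.079, edgeR adjusted p = 1.24e-18). Library totals ran from 29811747 to 39910127 counts. The groups separated on the first principal component, which held 78% of the variance. The 6 epithelial markers were detected in every library, with a summed level of 8480 to 9335 CPM, a count scaled to a common library size, in parental and 6417 to 7095 CPM in knockout libraries, and 5 of the 6 fell while KRT7 rose. Of other cell types, 6 leukocyte markers summed to 3.92 to 5.79 CPM, 4 endothelial markers to 0.13 CPM or less, 5 muscle markers to 0.31 CPM or less, and 6 fibroblast markers to 46.7 to 49.9 CPM in parental and 64.2 to 68.2 CPM in knockout libraries, nearly all COL1A1. The part of these shifts in the subunit results was not tested, and in bulk RNA fewer cells of a type and less RNA per cell cannot be told apart.

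Across the genome the groups differed widely, which sets the background for the subunits. Of 16652 genes tested with edgeR's quasi-likelihood test, 41.4% passed an adjusted p of 0.05, with 21.3% higher and 20.1% lower in the knockout. Among the 78 tested subunits, 7 were higher, 29 were lower and 42 did not pass. The direction split by chromosome. On chromosome 2, 5 of 5 subunits were higher, beside 66.8% of all tested chromosome 2 genes. On the other chromosomes, 2 of 73 subunits were higher, beside 18% of all genes there, and 29 were lower, beside 21.1%. In 5 subunits on chromosome 2 and 2 elsewhere every knockout library lay above every parental library, and in 32 subunits, all off chromosome 2, every knockout library lay below. The groups did not overlap for 50.2% of all tested genes.

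**Figure D1:**
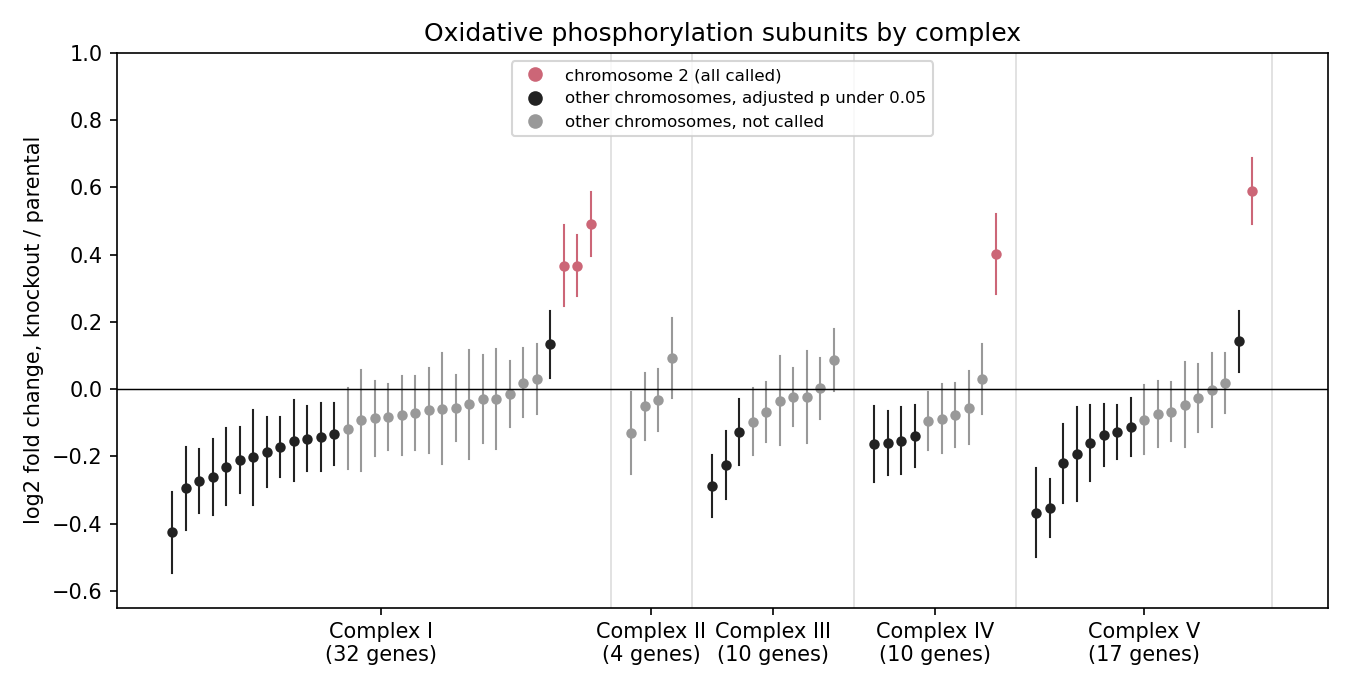
Log2 fold change of knockout over parental (y axis) with its 95% confidence interval for each subunit gene with at least 10 CPM in parental cells, grouped by complex and ordered by value within it. The 5 chromosome 2 genes (red) lie between 0.37 and 0.59, above every subunit gene on another chromosome.

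The promoters of COX5B, NDUFB3, NDUFS1 and NDUFA10, 4 of the 5 chromosome 2 subunits, are shown, and no RefSeq window was used for ATP5MC3. A link between promoter letters and the changes was not tested. The 250 bases before the RefSeq start (GRCh38.p14) are given 5′ to 3′ on the gene's strand, for COX5B at chr2:97645812-97646061 on the plus strand, NDUFB3 at chr2:201071751-201072000 on the plus strand, NDUFS1 at chr2:206159445-206159694 on the minus strand and NDUFA10 at chr2:240025343-240025592 on the minus strand. Capitals mark matches, on either strand, to GCATGCGC, a core bound by NRF1, or to CCGGAAG, a core bound by ETS factors such as GABP, both known activators of respiratory chain genes. The matches of the 2 cores do not overlap each other in these windows.
COX5B: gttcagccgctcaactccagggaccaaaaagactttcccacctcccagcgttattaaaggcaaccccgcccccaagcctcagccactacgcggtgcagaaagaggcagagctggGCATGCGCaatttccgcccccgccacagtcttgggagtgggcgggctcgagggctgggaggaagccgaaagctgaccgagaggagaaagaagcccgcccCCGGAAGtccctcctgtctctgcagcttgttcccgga
NDUFB3: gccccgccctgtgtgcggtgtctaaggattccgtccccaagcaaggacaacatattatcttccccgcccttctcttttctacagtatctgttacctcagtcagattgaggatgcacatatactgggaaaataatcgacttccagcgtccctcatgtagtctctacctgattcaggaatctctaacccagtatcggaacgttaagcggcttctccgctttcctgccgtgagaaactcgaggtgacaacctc
NDUFS1: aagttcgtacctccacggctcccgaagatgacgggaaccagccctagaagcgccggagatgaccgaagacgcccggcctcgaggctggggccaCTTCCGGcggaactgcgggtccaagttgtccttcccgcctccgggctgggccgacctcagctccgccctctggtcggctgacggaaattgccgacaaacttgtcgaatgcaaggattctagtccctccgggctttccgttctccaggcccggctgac
NDUFA10: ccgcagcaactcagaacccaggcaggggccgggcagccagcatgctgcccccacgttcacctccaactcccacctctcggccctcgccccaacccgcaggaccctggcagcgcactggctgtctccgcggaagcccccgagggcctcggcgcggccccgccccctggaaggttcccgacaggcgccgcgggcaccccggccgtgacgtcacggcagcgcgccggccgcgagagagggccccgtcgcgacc
COX5B held both cores, NDUFS1 held the ETS core in reverse orientation, and these letters were not found in the other two windows. A RefSeq window was used for 66 of the 84 subunits. The NRF1 core was present in 12 of the 66 (18.2%) and in 768 of 27305 promoters of all genes (2.81%). The ETS core was present in 17 of the 66 (25.8%) and in 2407 of all promoters (8.82%). Off chromosome 2 the cores were found in 17.7% and 24.2% of 62 subunit promoters. A match describes the letters only and says nothing of whether a factor binds there.

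ATP5MC3 encodes a c subunit of complex V, the ring through which protons pass (ENSG00000154518, hg38 chromosome 2, 175176258 to 175184607, minus strand). The parental libraries had 188, 177 and 179 CPM of it and the knockout libraries 292, 266 and 261 CPM. All 3 knockout libraries lay above all 3 parental libraries. The change was 0.59 on the log2 scale (SE 0.047, edgeR adjusted p = 7.78e-09), the largest rise among the subunits.

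NDUFS1 encodes the largest core subunit of complex I, which carries iron-sulfur clusters near the site where NADH is oxidised (ENSG00000023228, chromosome 2, 206114817 to 206159603, minus strand). The parental libraries had 95.4, 100.3 and 95.2 CPM, and 133.7, 142.1 and 133.2 CPM were measured in the knockout. The lowest knockout library stood above the highest parental one. The log2 fold change was 0.49 (SE 0.045, edgeR adjusted p = 4.85e-08).

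COX5B encodes an accessory subunit of complex IV (ENSG00000135940, chromosome 2, 97646040 to 97648383, plus strand). The parental values were 110, 96.7 and 103 CPM and the knockout values 149, 131 and 131 CPM, with no overlap and with the highest knockout value in replicate 1. The log2 fold change was 0.40 (SE 0.057, edgeR adjusted p = 1.36e-05).

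The other two members on the chromosome belong to the membrane arm of complex I as accessory subunits. NDUFA10 (ENSG00000130414, 239892450 to 240025402, minus strand) had 99.02, 100.6 and 100.6 CPM in parental and 134, 128 and 125 CPM in knockout libraries. NDUFB3 (ENSG00000119013, 201071433 to 201085750, plus strand) had 37.4, 38.5 and 34.7 CPM in parental and 46.5, 49.4 and 46.5 CPM in knockout libraries. Neither pair of groups overlapped, and the spread within a group was small beside the gap between groups for NDUFA10 (100.1 ± 0.90 against 129 ± 4.7 CPM, SD, n = 3). Both rose by 0.37 on the log2 scale, with edgeR adjusted p of 1.54e-06 for NDUFA10 and 3.71e-05 for NDUFB3. DESeq2 and limma-voom also called these 5 genes higher and none lower, at an unadjusted p under 0.05 as well.

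**Figure D2:**
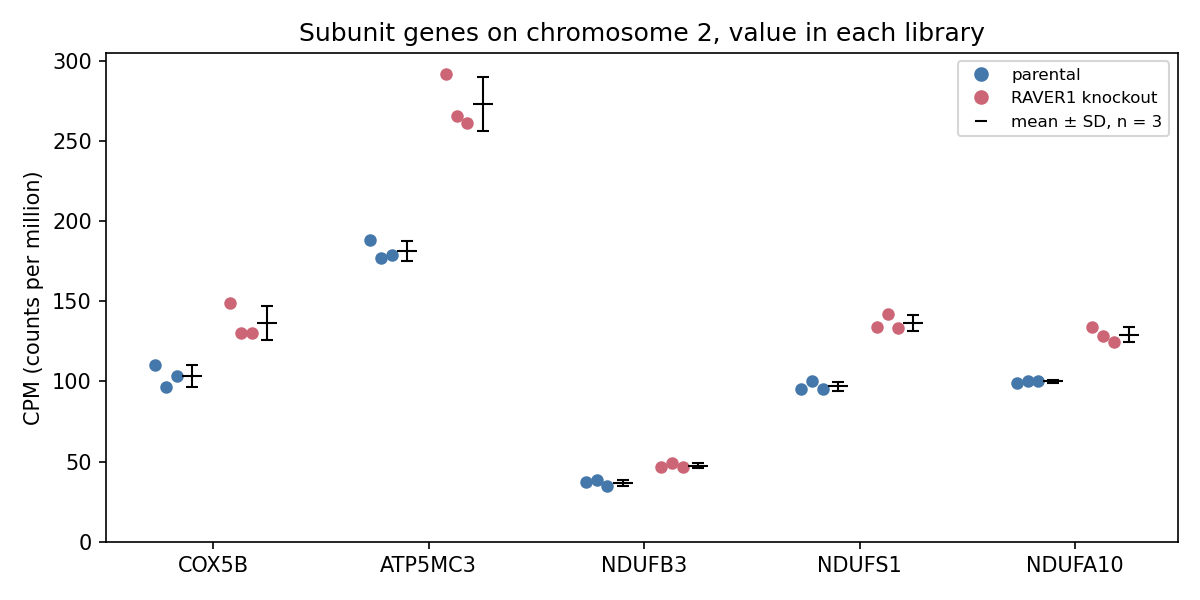
CPM of the 5 subunit genes on chromosome 2 (y axis, from 0) in each parental (blue) and knockout (red) library, with the mean and SD of 3 libraries beside the points. For every gene the 3 knockout libraries lie above the 3 parental ones, with ATP5MC3 going from a mean of 181 to 273 CPM.

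The rest of the chromosome moved in the same direction. The 1125 tested genes of chromosome 2 had a median log2 fold change of 0.42, with 752 higher and 63 lower, against a median of -0.013 for 15527 genes elsewhere. At 50 to 500 CPM in parental cells, 216 of 238 chromosome 2 genes were higher. The median lay between 0.28 and 0.50 in each of 10 windows of 25 Mb along the chromosome. The 5 subunits had a median of 0.40, close to that of their chromosome. For 4 of them the change was below the median of their 20 nearest tested genes, at 0.40 against 0.56 for COX5B, 0.37 against 0.59 for NDUFB3, 0.49 against 0.57 for NDUFS1 and 0.37 against 0.42 for NDUFA10. ATP5MC3 was above it, at 0.59 against 0.36, with 10 of its 20 neighbours called higher. These differences from the neighbours were not tested.

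**Figure D3:**
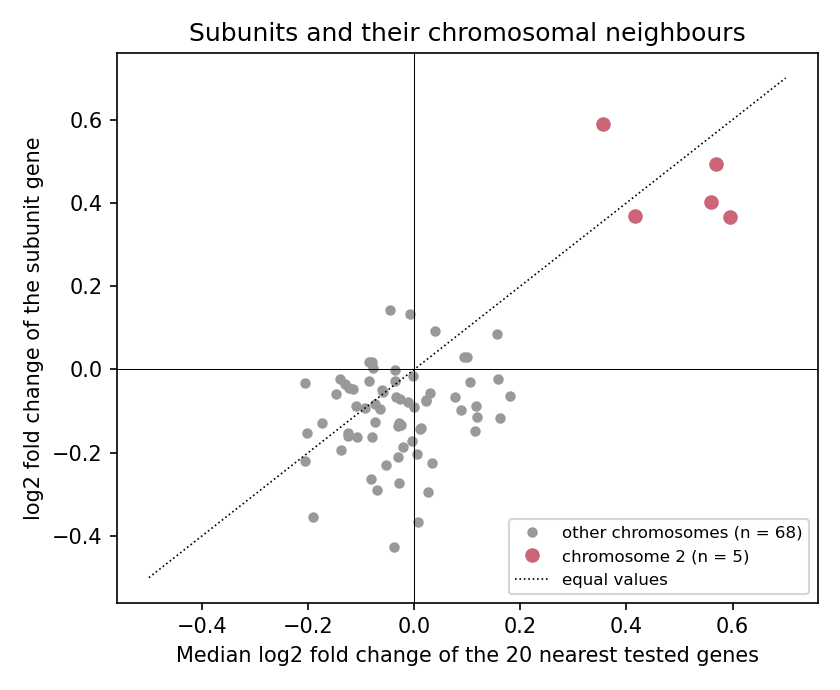
Log2 fold change of each subunit gene with at least 10 CPM (y axis) against the median of its 20 nearest tested genes (x axis), with the dotted line at equal values. The chromosome 2 genes (red) have neighbour medians of 0.36 to 0.59, and the 68 others (grey) scatter around and mostly below 0.

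Away from chromosome 2 a subunit's change followed that of its neighbours little. Across 73 tested subunits, Pearson's r between the subunit's own log2 fold change and its neighbour median was 0.097 and Spearman's rho was 0.082. The points share the same 6 libraries and some share neighbours, and the value is a description across genes.

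ATP5MC3 allows a comparison inside 1 protein. ATP5MC1 on chromosome 17, ATP5MC2 on chromosome 12 and ATP5MC3 on chromosome 2 encode precursors with different import signals and the same mature c subunit. Of their summed counts, ATP5MC3 made up 28.1%, 27.8% and 27.7% in parental replicates and 38.1%, 38.8% and 38.7% in knockout replicates. The parental libraries stayed within 1 percentage point of each other and so did the knockout libraries, with a wide gap between the groups. The mean share went from 27.85% ± 0.20 to 38.57% ± 0.38 (SD, n = 3 each), a difference of 10.7 percentage points. The exact two-sided permutation p was 0.1, the smallest that 3 against 3 libraries can give. This share does not depend on how libraries are scaled, and it rests on reads of unequal transcript lengths, so it describes each gene's reads and not its molecules.

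ATP5MC1 was called lower, at -0.16 on the log2 scale (edgeR adjusted p = 0.0223), with 207, 194 and 204 CPM in parental and 199, 173 and 169 CPM in knockout libraries. The call was lost without parental replicate 1 (adjusted p = 0.0735) or 3 (0.0541) and without knockout replicate 2 (0.101) or 3 (0.147). ATP5MC2 had a log2 fold change of -0.07 and was not called (adjusted p = 0.231). It was called lower without knockout replicate 1 (adjusted p = 0.00768) and with the replicate number as a block (0.0247). Summed over the 3 genes, parental cells had 651 ± 18.5 CPM and knockout cells 708 ± 50.2 CPM (SD, n = 3 each).

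**Figure D4:**
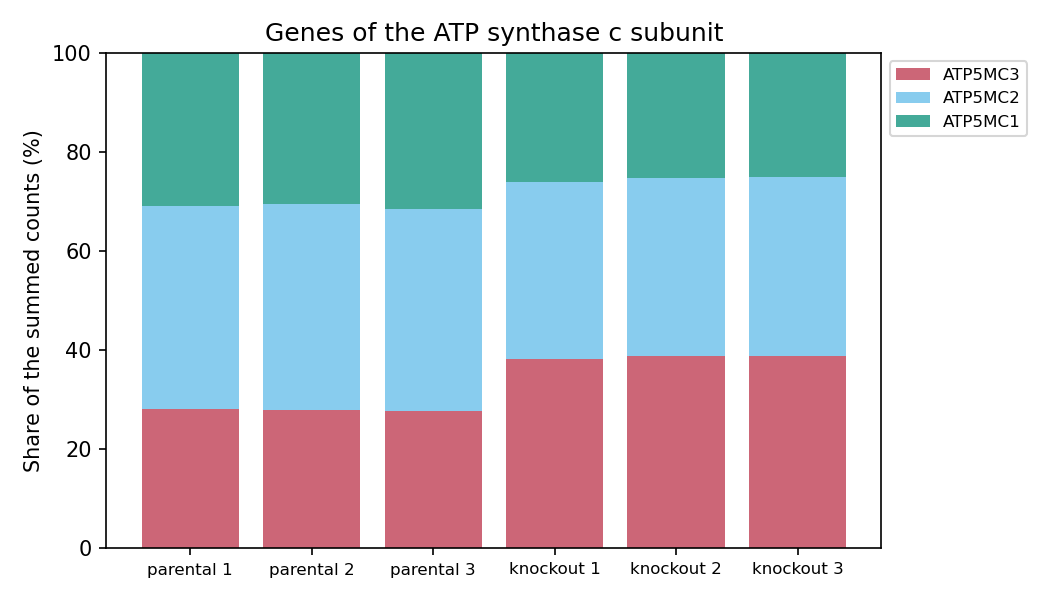
Share of the summed counts of the 3 ATP synthase c-subunit genes that each gene makes up (y axis, percent) in each library. ATP5MC3 (red) takes 27.7% to 28.1% in parental and 38.1% to 38.8% in knockout libraries.

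The other chromosome 2 genes also took a larger share of the counts of their own complex. COX5B went from 6.54% ± 0.28 to 8.96% ± 0.23 of complex IV subunit counts (SD, n = 3 each). NDUFS1 went from 3.73% to 5.46% of complex I, NDUFA10 from 3.85% to 5.16% and NDUFB3 from 1.42% to 1.90%. ATP5MC3 went from 5.32% to 7.91% of complex V. In each of the 5 the lowest knockout share was above the highest parental share.

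The subunits off chromosome 2 had a median log2 fold change of -0.093, and 9 of 73 (12.3%) had a value above 0, against 47.8% of all tested genes there. Since well-expressed genes are called more easily, genes at 50 to 500 CPM in parental cells were set beside them. In that range 24 of 51 subunits (47.1%) were lower, beside 25.1% of 3629 genes, and 1 was higher (1.96%), beside 22.0%. Within the same 51 subunits, by gene length, the median was -0.083, -0.14, -0.077 and -0.13 from the shortest to the longest of 4 bins, against -0.027, -0.020, -0.0058 and -0.012 for other protein-coding genes off chromosome 2 in that range, with 3 subunits in the last bin. The falls were small. Among the 28 lower subunits with at least 10 CPM they ran from 7.57% to 25.6%, with a median of -0.18 on the log2 scale.

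The number called changed when single libraries were left out. Without knockout replicate 3, 14 subunits were lower, and without parental replicate 1, 16 were lower, against 29 with all libraries. Over all genes these runs called 2864 and 2902 lower, against 3343. Without knockout replicate 1, 34 subunits and 3619 of all genes were lower. Fewer libraries also give less power for every gene, and its part in these counts was not tested. Of the 29, 13 kept their call in every alternative run, namely NDUFS5, NDUFC1, NDUFS6, NDUFA2, NDUFB11, NDUFA1, NDUFB1, NDUFS7, UQCRQ, UQCR10, ATP5MF, ATP5PD and ATP5PO. Opposite-strand exons overlap 44.52% of the exon bases of NDUFA1 (RNF113A) and 44.85% of those of NDUFB11 (RBM10). How the counting treated such reads is not given. The median of the subunits off chromosome 2 stayed below 0 in every alternative, between -0.13 and -0.076.

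**Figure D5:**
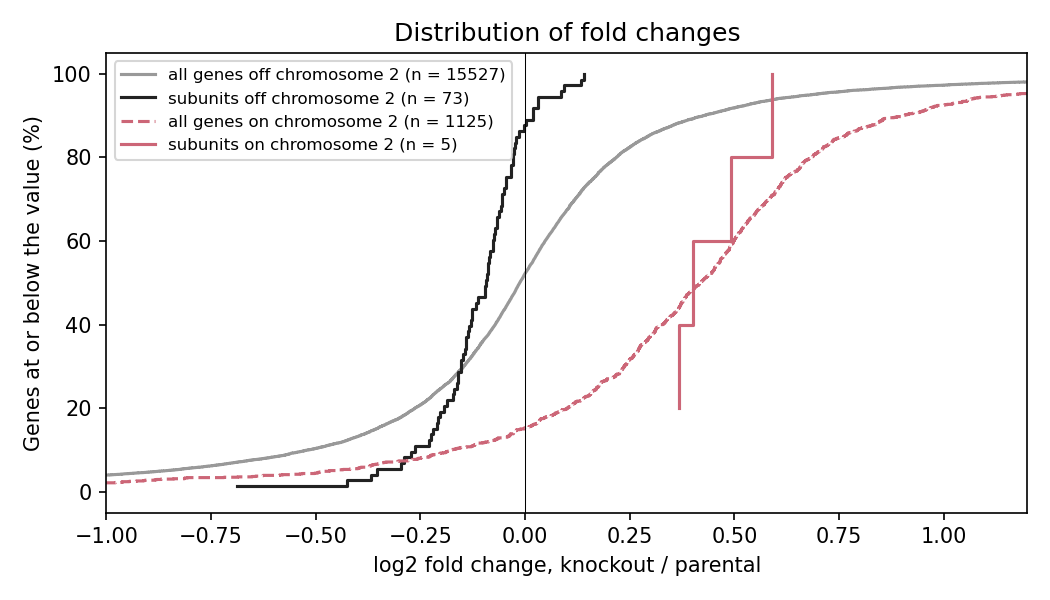
Cumulative share of genes (y axis, percent) at or below each log2 fold change (x axis) for all genes and for subunits, on and off chromosome 2, shown from -1 to 1.2. The curve of the 73 subunits off chromosome 2 (black) crosses 0 at a higher share than that of all genes there (grey), and the 5 chromosome 2 subunits lie within the range of their chromosome (red, dashed).

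In complex I, 14 of 36 subunits were lower and 4 were higher, and the 33 off chromosome 2 had a median of -0.12. NDUFC1, an accessory subunit of the membrane arm, fell most among well-expressed members, from 41.8, 38.5 and 39.8 CPM to 30.5, 29.8 and 29.02 CPM, with no overlap (log2 fold change -0.43, SE 0.057, edgeR adjusted p = 6.23e-06). NDUFS6, an accessory subunit near the NADH-oxidising part, went from 118, 109 and 111 CPM to 93.3, 94.1 and 92.5 CPM (log2 fold change -0.27, edgeR adjusted p = 8.09e-05). NDUFS7, the core subunit with the iron-sulfur cluster next to the ubiquinone site, fell by 0.26 and NDUFB1, another accessory subunit, fell by 0.30 on the log2 scale. Opposite-strand genes overlap 49.1% of the exon bases of NDUFS7 and genes on the same strand overlap 18.6% of those of NDUFC1, and how the counting treated such reads is not given. NDUFV1, the flavoprotein subunit that takes electrons from NADH, stood at 193, 176 and 184 CPM in parental and 192, 175 and 181 CPM in knockout libraries (log2 fold change -0.015, adjusted p = 0.829). NDUFA8, an accessory subunit on chromosome 9, was the 1 complex I gene off chromosome 2 to rise, by 0.13 (edgeR adjusted p = 0.0301), a call lost without parental replicate 2 (adjusted p = 0.0654), parental replicate 3 (0.176) or knockout replicate 3 (0.0801), with upper-quartile scaling (0.106) and with no filter (0.0712).

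Of the core subunits along the electron path, NDUFS1 on chromosome 2 rose and NDUFS7 on chromosome 19 fell. Summed over complex I, the 33 genes off chromosome 2 went from 2366 ± 64.7 to 2186 ± 80.2 CPM (SD, n = 3), a ratio of 0.924, and the 3 genes on chromosome 2 went from 234 to 313 CPM, a ratio of 1.34. Of the tested members, 5 had fewer than 2 CPM in parental cells, NDUFA3, NDUFA7, NDUFA13 and NDUFV2 in complex I and COX6B2 in complex IV. In the annotation used here, same-strand exons of other genes cover 32.3% of the exon bases of NDUFA7, 28.4% of NDUFV2 and 21.0% of NDUFA13. They cover 30.9% of COX6B2 and none of NDUFA3. Those same-strand genes had group means of at most 1.12 CPM. Opposite-strand exons of RPS28, at 194 CPM in parental cells, cover 6.30% of NDUFA7, and those of TFPT, at 0.54 CPM, cover 6.34% of NDUFA3. How reads shared by genes were counted is not given, so these levels cannot show whether reads of the members were lost. NDUFA3 was called lower from 1.254, 0.86 and 1.01 CPM to 0.80, 0.50 and 0.64 CPM (log2 fold change -0.69, SE 0.25, edgeR adjusted p = 0.0344). DESeq2 did not call it (adjusted p = 0.115), and the call was lost without parental replicate 1 (0.166) or 3 (0.0607) and without knockout replicate 2 (0.153) or 3 (0.0673).

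In complex II, the only one made wholly of nuclear-encoded subunits, 0 of 4 genes passed in edgeR, DESeq2 or limma-voom, and 1 had an unadjusted p under 0.05 in edgeR and limma-voom and 0 in DESeq2. SDHA, the flavoprotein subunit, had 32.4, 30.2 and 31.1 CPM in parental and 29.3, 28.4 and 28.0 CPM in knockout libraries, with a log2 fold change of -0.13 (edgeR adjusted p = 0.0818). Without knockout replicate 1 its adjusted p was 0.0417, and it was 0.0317 with upper-quartile scaling and 0.0212 with the replicate number as a block. The iron-sulfur subunit SDHB and the membrane anchors SDHC and SDHD had log2 fold changes of -0.03, -0.05 and 0.09. Summed over the complex, parental cells had 290 ± 6.5 CPM and knockout cells 283 ± 8.6 CPM (SD, n = 3 each).

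In complex III, 3 of 10 genes were lower and 0 higher in edgeR, DESeq2 and limma-voom, 0 also at an unadjusted p. UQCRQ, a small accessory subunit, went from 153, 145 and 145 CPM to 125, 119 and 119 CPM, with no overlap between groups (log2 fold change -0.29, SE 0.044, edgeR adjusted p = 2.86e-05), and opposite-strand exons of GDF9 overlap 20.8% of its exon bases. UQCR10, another small subunit, fell by 0.23. UQCRC1, a core subunit, was called lower at -0.13 (edgeR adjusted p = 0.0379), a call lost with scaling from genes off chromosome 2 (0.0709) and without parental replicate 1 (0.172) or 3 (0.0554) or knockout replicate 2 (0.175) or 3 (0.144). The subunits that carry the electrons were not called, with log2 fold changes of 0.09 for CYC1, cytochrome c1 (adjusted p = 0.132), and -0.02 for UQCRFS1, the iron-sulfur protein. With the replicate number as a block, CYC1 was called higher (edgeR adjusted p = 0.0051). UQCRHL, a retrocopy of UQCRH, had near-identical reads to share with it, and the split between the 2 is uncertain.

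In complex IV, 4 of 11 tested genes were lower and COX5B was the 1 higher. COX7A2, NDUFA4, COX6C and COX7C, all small accessory subunits, had log2 fold changes of -0.16, -0.16, -0.15 and -0.14 and passed the test, and each of the 4 calls was lost without knockout replicate 3 (adjusted p of 0.143, 0.0874, 0.0695 and 0.119). The calls of COX7A2 and COX7C were lost without parental replicate 1 too (0.0698 and 0.0792), that of COX7A2 without knockout replicate 2 (0.0894) and that of COX6C without parental replicate 3 (0.0572). COX5A, which sits beside COX5B among the subunits on the matrix side, had 223, 215 and 214 CPM in parental and 210, 198 and 202 CPM in knockout libraries (log2 fold change -0.095, adjusted p = 0.073). It was called lower without knockout replicate 1 (adjusted p = 0.0156), with upper-quartile scaling (0.0222) and with the replicate number as a block (0.00349). Several subunits of complex IV exist as a form of wide expression and a form known mainly from heart, muscle or testis. COX6A1 had a log2 fold change of -0.09 and COX6B1 of -0.05, COX7B of -0.08 and COX8A of 0.03, none of them called. Without knockout replicate 1, COX6A1 (edgeR adjusted p = 0.00804) and COX6B1 (0.00901) were called lower. With the replicate number as a block, COX6A1 (0.0377) and COX7B (0.0353) were called lower. The tissue-restricted COX6A2, COX7A1, COX7B2 and COX8C had 0 counts in every library, which allows at most 3 counts, or 0.101 CPM, in the shallowest library. COX6B2 stood at no more than 0.53 CPM in all libraries and was not called (log2 fold change -0.21, SE 0.40).

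In complex V, 8 of 17 tested genes were lower and 2 were higher. The largest falls were in the peripheral stalk, which holds the catalytic head in place. ATP5PD went from 175, 171 and 172 CPM to 137, 137 and 131 CPM, with no overlap (log2 fold change -0.35, SE 0.041, edgeR adjusted p = 1.14e-06). ATP5PO, which links the stalk to the head, went from 24.7, 23.7 and 24.6 CPM to 18.0, 19.4 and 19.3 CPM (log2 fold change -0.37, SE 0.063, edgeR adjusted p = 1.14e-04). The remaining stalk genes ATP5PB and ATP5PF had log2 fold changes of -0.07 and -0.09 and were not called. With the replicate number as a block both were called lower (edgeR adjusted p of 0.0461 and 0.038). Exons of other genes on the same strand cover 19.6% of the exon bases of ATP5PO, and opposite-strand genes overlap 19.1% of those of ATP5PD.

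The subunits of the catalytic head moved apart. ATP5F1A, the alpha subunit, went from 457, 452 and 450 CPM to 427, 414 and 403 CPM (log2 fold change -0.13, edgeR adjusted p = 0.0128, lost without knockout replicate 3 at 0.098). ATP5F1B, the catalytic beta subunit, went from 1117, 1065 and 1083 CPM to 1269, 1172 and 1162 CPM (log2 fold change 0.14, edgeR adjusted p = 0.0121, lost without parental replicate 3 at 0.0634 and with upper-quartile scaling at 0.0619). ATP5F1A was lower and ATP5F1B higher in all 3 knockout libraries than in any parental library. ATP5F1B also had the highest level per length of all subunits, at 486 CPM per kb of deposited gene length in parental cells and 537 in knockout cells, while COX8A had 309 CPM per kb in parental cells. The deposited length covers all annotated exons and is longer than the main transcript of some genes, which lowers their level per length. ATP5MF.PTCD1, a readthrough gene that shares most of its exon bases with its neighbours, and ATP5MGL had too few counts to be tested.

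By summed level the complexes lost little off chromosome 2. The ratios of knockout to parental were 0.924 for complex I, 0.977 for complex II and 0.961 for complex III. For complex IV and complex V they were 0.940 and 0.983. The ratio of complex V leans on ATP5F1B, which rose from 1089 to 1201 CPM while the sum went from 3226 to 3172 CPM. It does not describe most members, since 8 of 17 tested complex V genes were lower. Over all complexes the 79 genes off chromosome 2 went from 8857 ± 198 to 8470 ± 320 CPM (SD, n = 3), and the 5 on chromosome 2 went from 519 ± 10.3 to 722 ± 30.1 CPM. Of the 42 subunits that were not called, 38 had a 95% confidence interval within 1.25-fold in either direction.

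Subunits that the symbol rule leaves out were described alongside. COX7A2L, on chromosome 2 and known for joining complexes III and IV, rose by 0.31 (edgeR adjusted p = 1.40e-05), and CYCS, cytochrome c, rose by 0.18. ATP5IF1, the inhibitor of ATP hydrolysis by complex V, fell by 0.21. COX4I1, a complex IV subunit, was called lower at -0.13 (adjusted p = 0.0274), a call lost with scaling from genes off chromosome 2 (0.0529) and without parental replicate 1 (0.141) or knockout replicate 2 (0.114) or 3 (0.135). NDUFAB1 (0.06) and NDUFA4L2 (0.40, under 1 CPM) were not called, and COX4I2 was not tested.

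Assembly factors build the complexes and are not part of them. Of 65 tested, 11 were higher (16.9%) and 15 lower (23.1%), with a median of -0.046. Of all tested genes, 21.3% were higher and 20.1% lower. On chromosome 2, 4 of 4 were higher, namely NDUFAF7 of complex I (0.68), TMEM177 (0.52) and COA5 (0.42) of complex IV, and BCS1L of complex III (0.47). Of all tested genes on that chromosome, 66.8% were higher. Off chromosome 2, 7 of 61 were higher (11.5%) and 15 lower (24.6%), beside 18% and 21.1% of all genes there. For complex I, 4 of 20 were higher and 4 lower, with FOXRED1 at -0.33 and NDUFAF4 at 0.35. For complex IV, 6 of 26 were higher and 6 lower (23.1% each), with COA6 rising by 0.55 and SURF1 falling by 0.43. For complex V, 0 of 6 were higher, also in DESeq2 and limma-voom and at an unadjusted p, and 3 were lower, namely DMAC2L (-0.35), ATPAF2 (-0.33) and ATPAF1 (-0.19). For complex III, TTC19 was the 1 of 9 lower (-0.21), and for complex II, SDHAF1 was the 1 of 4 lower (-0.18), a call lost without parental replicate 3 (adjusted p = 0.0825) or knockout replicate 2 (0.0562) or 3 (0.0722).

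The 13 subunits encoded in mitochondrial DNA could not be compared with their nuclear partners, because all 37 mitochondrial rows of the table are listed at 0 in every library. Of 17 tested genes for the expression of mitochondrial DNA, 2 were higher (11.8%, beside 21.3% of all tested genes). Both lie on chromosome 2, namely MTERF4 (0.45) and LRPPRC (0.35), which stabilises mitochondrial mRNAs. SSBP1, the mitochondrial single-strand binding protein, was the 1 lower (-0.24), which makes 5.88% of the list beside 20.1% of all tested genes. TFAM, which packages and transcribes mitochondrial DNA, averaged 64.4 CPM in the parental group and 68.1 CPM in the knockout and was not called (0.08, adjusted p = 0.334), but was called higher without knockout replicate 1 (0.0161).

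The mitochondrial ribosome, which translates those subunits, split by chromosome as the subunits did. On chromosome 2, 7 of 7 tested genes were higher, with a median of 0.33, led by MRPL30 (0.57), MRPS9 (0.55) and MRPS5 (0.47). Of all tested genes on that chromosome, 66.8% were higher. Off chromosome 2, 3 of 70 were higher (4.29%) and 23 lower (32.9%), with a median of -0.054, beside 18% and 21.1% of all genes there. Over all lists given here, 15 of 15 tested pathway genes on chromosome 2 were higher, with a median of 0.42. Elsewhere 23 of 201 were higher (11.4%) and 45 lower (22.4%), with a median of -0.020.

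Among regulators of respiratory chain genes no fall was called in edgeR. Of 10 tested, 4 were higher and 0 lower, with 1 lower at an unadjusted p under 0.05; DESeq2 called 0 lower and limma-voom called 1. The coactivators PPARGC1B (0.46) and PPRC1 (0.17), the GABP subunit gene GABPB1 (0.26) and the nuclear receptor gene ESRRA (0.16) rose, although the call of ESRRA was lost with upper-quartile scaling (adjusted p = 0.0691) and without parental replicate 2 (0.0898) or knockout replicate 3 (0.0556). NRF1 (-0.06) and GABPA (-0.004), whose motif cores are marked in the promoters above, were not called. PPARGC1A, the coactivator best known in muscle and brown fat, had 0 counts in every library.

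Upstream of the chain, 3 of 18 genes of the citric acid cycle and pyruvate dehydrogenase were higher (16.7%) and 4 lower (22.2%). Among all tested genes the shares were 21.3% and 20.1%. PDHX was at 0.33, MDH2 at -0.23 and IDH2 at -0.23. SUCLG1, on chromosome 2, rose by 0.20. Of 23 genes for protein import into mitochondria, 6 were higher (26.1%) and 0 lower in edgeR and limma-voom. DESeq2 called 4 higher and 0 lower, with 0 lower also at an unadjusted p. The import genes that rose included GRPEL1 (0.30), a partner of the matrix chaperone, TOMM40 (0.23), the pore of the outer membrane, and TIMM17A (0.17), whose call was lost without parental replicate 3 (adjusted p = 0.0611).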

How the data were processed

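The series deposited 1 table of raw read counts per gene for 6 polyA libraries, 3 parental and 3 RAVER1 knockout, grouped by their titles. Per the labels' protocols, TRIzol served for extraction and a stranded mRNA kit for the libraries. The authors used cutadapt 2.8, HISAT2 2.1.0, SAMtools 1.10, featureCounts 2.0.0 and hg38, per the submitters' processing notes. The sources used here do not give the annotation release, the strand setting or how reads of several genes were handled, so values of overlapping or near-identical genes are uncertain.

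Counts were fitted over the whole table in R 4.3.3 with edgeR 4.0.16 (filterByExpr, TMM factors, quasi-likelihood F-test, Benjamini-Hochberg adjustment over 16652 genes, threshold 0.05). CPM used the scaled library sizes. Alternatives were RLE and upper-quartile scaling, TMM from genes off chromosome 2, no filter, 1 CPM in 3 libraries, DESeq2 1.42.0, limma-voom (limma 3.58.1), the replicate number as a block and each library left out in turn. Positions and exon overlaps came from GENCODE release 29. Libraries within a group differed by more than sampling noise (chi-square per degree of freedom 2.41 to 8.86), so none was merged. On simulated counts with changed genes of at least 10 CPM, the edgeR step recovered 42 of 50 genes changed 1.25-fold and 50 of 50 changed 1.5-fold, and called 8 of 16224 unchanged genes among 16424 tested. That simulation did not test scaling with a shifted chromosome. It left 16224 of the 16424 genes unchanged, while 41.4% of genes were called in the data, and adjusted p-values depend on that share. It also held no change under 1.25-fold, and the median of the lower subunits (-0.18 on the log2 scale) was a smaller change than that.

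The members and the gene lists were chosen with earlier results of these data known. Named genes were RAVER1, every subunit on chromosome 2, up to 8 subunits with the largest rise or fall, isoform families, a fixed set of core subunits, subunits not tested, subunits whose call changed under an alternative, subunits outside the rule, and up to 3 genes per list with the smallest adjusted p plus 5 regulators. Subunits under 2 CPM, UQCRHL, UQCRH, NDUFV1, UQCRFS1, COA5, SUCLG1, ESRRB and the subunits named for a stable call were chosen after their values were seen.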

Additional observations from a re-analysis of the deposited data

How the results depend on the processing

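The 5 subunits on chromosome 2 were called higher in each alternative, with their median between 0.37 and 0.45, and the median of the subunits off chromosome 2 stayed between -0.13 and -0.076. Counts of lower subunits, all of them off chromosome 2, ran from 14 to 34 when 1 library was left out, lowest without knockout replicate 3 and 16 without parental replicate 1. The 2 higher subunits off chromosome 2 became 0 with upper-quartile scaling and 1 with no filter, and ran from 0 to 2 when 1 library was left out, with 0 without parental replicate 3 and 1 without parental replicate 2 or knockout replicate 3; the cause was not tested. The difference in the ATP5MC3 share ran from 10.6 to 10.9 percentage points when 1 library was left out. The scaling alternatives moved the median of all genes by at most 0.033. With the replicate number as a block, 40 subunits were lower and 8 higher, 3 of them off chromosome 2; over all genes the replicate block gave 4275 higher and 4071 lower, against 3543 and 3343. Same-numbered libraries deviated together with correlations of 0.129, 0.0292 and 0.0142, and knockout replicate 3 correlated best with parental replicate 2 (0.0667). Such small correlations over 3 libraries per group cannot decide whether the numbers pair the samples. The main fit used no block. Of the 42 subunits not called, 28 stayed so in every alternative. The 5 tested members under 2 CPM had standard errors of up to 0.40 on the log2 scale.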
